A study of Mus musculus with 54 samples.

Results

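Pcp4 and 7 genes of the cardiac conduction system, Cntn2, Etv1, Tbx3, Gja5, Irx3, Nkx2-5 and Tbx5, were followed across the hearts and livers of mice with altered fidelity of mitochondrial translation. These 8 genes of 54356 in each table were taken by name, and the group was selected on the measured heart level of Pcp4, which was higher in Mrps12ha/ha than in Mrps12+/+ hearts of the same data. Its values in the hearts are therefore given as a description without a test, also for Mrps12ep/ep against Mrps12+/+, where the same Mrps12+/+ hearts enter. All mice were C57BL/6, 20 weeks old and on a diet with 42% of its energy from fat. The control mice were Mrps12+/+ littermates, the error-prone mice (Mrps12ep/ep) and the hyper-accurate mice (Mrps12ha/ha) were homozygous for a point mutation in MRPS12, a protein of the decoding site of the mitochondrial ribosome, bred from heterozygous parents. Total RNA was sequenced from whole hearts and livers of 3 mice per genotype, with 3 technical libraries per mouse and tissue combined into 1 column, so n is the number of mice. The study's methods speak of pooling independent replicates, and that each column holds 1 mouse was taken from the match of column names to the labels. The question was what a change of translation fidelity in either direction did to the transcripts of each tissue under the high-fat diet.

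The heartbeat starts in the sinoatrial node, is delayed in the atrioventricular node and is then carried through the His bundle, the bundle branches and the Purkinje fibres to the ventricular muscle. Nodal cells conduct slowly and His-Purkinje cells fast, and T-box, Iroquois, NK2 and ETS transcription factors set these programmes by switching connexins and ion channels on or off. Conduction cells are a small share of a whole heart, so a bulk library holds few of their transcripts, and fewer cells of a type cannot be told apart from less RNA per cell.

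Values are the authors' normalized counts unless another unit is given, and 1 read was worth 0.5799 to 3.02 normalized counts in the hearts. Hearts held 11202864 to 51480512 reads on genes and livers 21238166 to 81518015, and the shallowest heart was that of Mrps12ha/ha mouse 2. The 12 ventricular markers summed to between 2478517.8 and 3842926.3 in the hearts and to between 7275.7 and 15548.1 in the livers, and the 10 hepatocyte markers to between 5284806.4 and 7189236.2 in the livers, as the tissue labels say. Hepatocyte markers also summed to between 242.9 and 17139.1 in the hearts. The hearts differed in their atrial transcripts: Myl7, the atrial myosin light chain, had 28.4, 33986.9 and 25002.3 in Mrps12+/+ mice 1 to 3, 21.8, 51454.5 and 17872.3 in Mrps12ep/ep mice 1 to 3, and 189.6, 132.9 and 1989.6 in Mrps12ha/ha mice 1 to 3. The heart of Mrps12ha/ha mouse 2 also stood apart from the other two of its group, with 44621.9 for Ryr2, the calcium release channel, against 16285.1 and 19112.6.

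Pcp4 encodes a small peptide that binds calmodulin, the calcium sensor of the cell, and speeds its exchange of calcium. In the mouse heart it is known as a transcript of Purkinje fibres. The gene lies at chr16:96467606-96525793 on the plus strand (GRCm38, GENCODE vM21). In the Mrps12+/+ hearts Pcp4 had 13.8, 2.6 and 10.1 normalized counts. In the Mrps12ep/ep hearts it had 1.0, 14.5 and 8.2. In the Mrps12ha/ha hearts it had 82.8, 57.4 and 56, so that each of these 3 hearts lay above all 6 others. The group means were 8.83 ± 5.71 (SD, n = 3) in Mrps12+/+, 7.9 ± 6.76 in Mrps12ep/ep and 65.4 ± 15.1 in Mrps12ha/ha, and the Mrps12ha/ha mean was 7.4 times the Mrps12+/+ mean and 8.28 times the Mrps12ep/ep mean.

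These levels rested on few reads. Pcp4 had 16, 3 and 16 reads in the Mrps12+/+ hearts, 1, 25 and 9 in the Mrps12ep/ep hearts and 45, 19 and 81 in the Mrps12ha/ha hearts. Exact Poisson 95% intervals, which cover counting error only, ran from 11.44 to 29.67 reads for the 19 of Mrps12ha/ha mouse 2 and from 0.03 to 5.57 for the single read of Mrps12ep/ep mouse 1. In the livers Pcp4 had 1 read in Mrps12+/+ mouse 3, 1 in Mrps12ep/ep mouse 2 and 2 in Mrps12ha/ha mouse 2, and none in the other 6, for which a count of 0 allowed up to 3 reads, or 2.1 to 7.14 normalized counts. The two-sided exact intervals drawn in the plot of Pcp4 reads reach further at a count of 0, to 3.69 reads. It was not detectable above this floor in any liver.

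**Figure D1:**
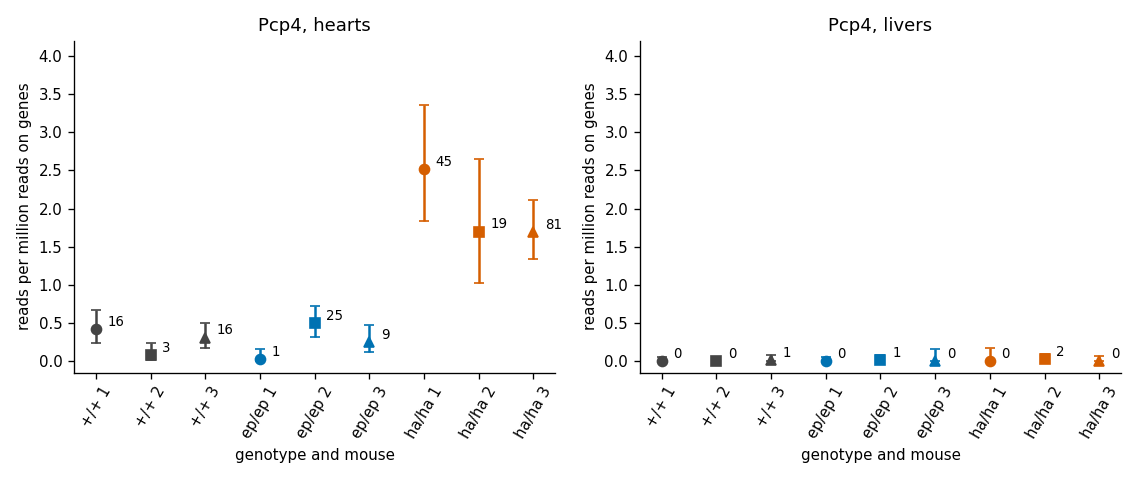
Pcp4 in each mouse, as reads per 1e6 reads on genes, in hearts (left) and livers (right); circles, squares and triangles are mice 1, 2 and 3, colours are genotypes, bars are exact Poisson 95% intervals and the printed numbers are reads. The 3 Mrps12ha/ha hearts lay between 1.694 and 2.512 per 1e6 reads and the 6 other hearts between 0.02956 and 0.4945.

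The 250 bases before the start of Pcp4 are shown because this gene chose the group, with those before Cntn2, which had the nearest heart profile among the other 7 genes. Both are RefSeq windows on GRCm38.p6, read 5′ to 3′ on the strand of the gene, Pcp4 at chr16:96467356-96467605 on the plus strand and Cntn2 at chr1:132542941-132543190 on the minus strand. The RefSeq start of Cntn2 differs from the GENCODE start, so its window lies inside the GENCODE span of the gene, chr1:132509427-132543256. Capitals mark matches on either strand to the letters searched. These were GGTGTG for T-box factors, AAGTG for NK2 homeobox factors, AGATAA for zinc finger factors of the Gata4 family, ACANNTGT for Iroquois factors and CCGGAA for ETS factors, and no matches overlapped here.
Pcp4: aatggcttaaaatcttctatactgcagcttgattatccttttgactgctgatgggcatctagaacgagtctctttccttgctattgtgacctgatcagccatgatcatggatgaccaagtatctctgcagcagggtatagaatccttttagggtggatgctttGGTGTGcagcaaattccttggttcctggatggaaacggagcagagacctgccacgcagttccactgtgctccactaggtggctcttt
Cntn2: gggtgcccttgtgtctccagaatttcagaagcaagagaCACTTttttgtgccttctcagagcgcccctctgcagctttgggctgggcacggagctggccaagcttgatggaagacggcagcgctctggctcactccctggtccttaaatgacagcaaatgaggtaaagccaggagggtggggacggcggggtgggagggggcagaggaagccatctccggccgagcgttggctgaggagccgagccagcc

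The Pcp4 stretch held 1 T-box match, which began 87 bases before the start, and the Cntn2 stretch held 1 NK2 match, which began 212 bases before it. Their G and C content was 46.8% and 61.2%, against a median of 52.4% over all windows. Windows of 250 bases before to 50 after the start were matched for 6 of the 8 genes (7 windows), not for Tbx3 and Tbx5. The T-box letters were in 1 of the 7 windows, that of Pcp4, and in 19.0% of all 32851. The NK2 letters were in 4 of the 7, those of Cntn2, Etv1, Gja5 and Irx3, and in 46.4% of all. The Gata4 family, Iroquois and ETS letters were in none of the 7 windows and in 11.2%, 7.38% and 14.9% of all, respectively. With so few windows these shares are a description only.

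The other 7 genes were tested with limma on log2(normalized count + 1), in a fit of all 16057 heart genes with a mean of at least 10 and with Benjamini-Hochberg adjustment across them. No gene of the 7 passed an adjusted p of 0.05 in any of the 3 heart comparisons. Between Mrps12ha/ha and Mrps12+/+ hearts 0.0311% of all genes passed, between Mrps12ep/ep and Mrps12+/+ hearts 0.0%, and between the mutants 0.0249%. At an unadjusted p under 0.05 there were 3 of 7 (Cntn2, Tbx3 and Nkx2-5) against 19.7% of all genes in the first comparison, 0 of 7 against 1.69% in the second and 2 of 7 (Tbx3 and Nkx2-5) against 17.9% in the third. The 3 Mrps12ha/ha hearts lay above all 3 Mrps12+/+ hearts for 3 of the 7 genes, as they did for 11.1% of all genes, and below them for 0 of 7, against 10.0%. The Mrps12ep/ep hearts lay above the Mrps12+/+ hearts for 1 of 7 (Tbx3) against 4.4%, and below for 0 of 7 against 3.64%. The Mrps12ha/ha hearts lay above the Mrps12ep/ep hearts for 1 of 7 (Nkx2-5) against 8.77%, and below for 0 of 7 against 7.82%. The median log2 fold change of the 7 genes was 0.26 for Mrps12ha/ha against Mrps12+/+, 0.25 for Mrps12ep/ep against Mrps12+/+ and 0.28 between the mutants, and that of all tested genes was -0.02, -0.01 and -0.02. The comparisons with Mrps12+/+ share the same 3 control hearts. An exact permutation test of 3 against 3 mice, run two-sided on the difference of means, cannot go below 0.1.

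**Figure D2:**
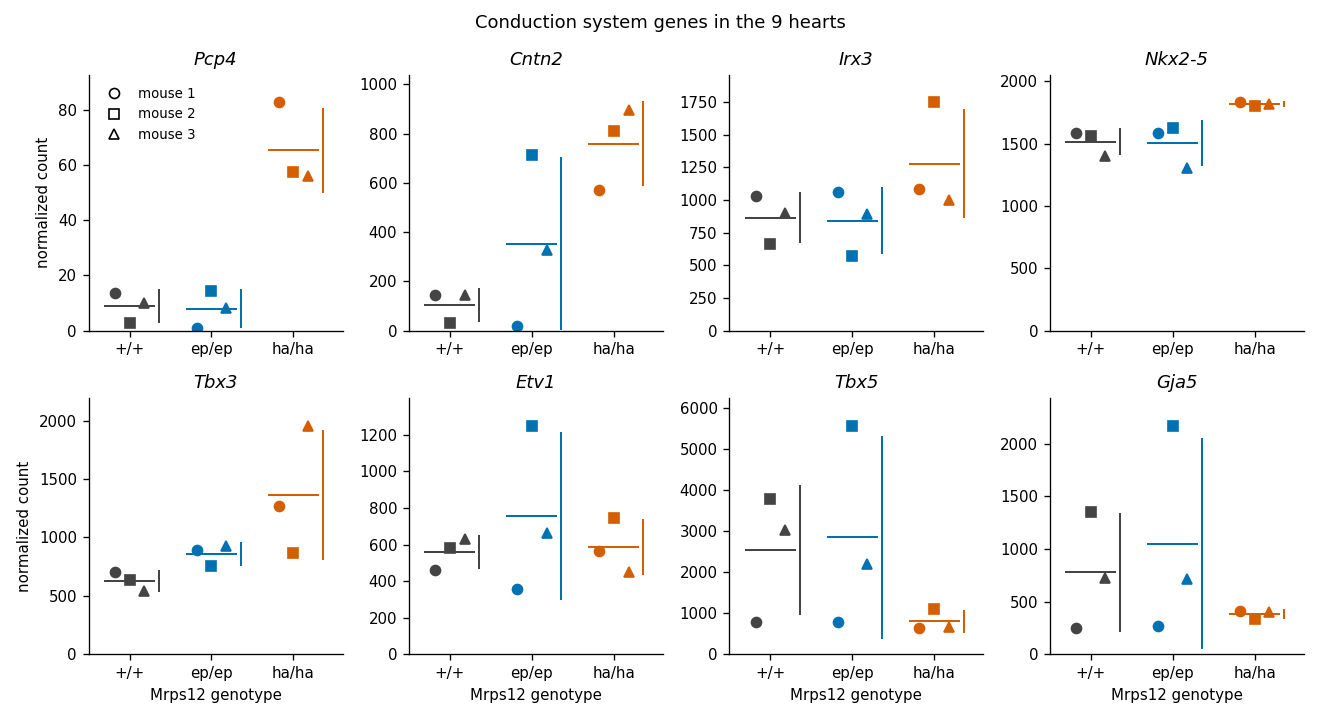
Normalized counts of the 8 genes in the 9 hearts, on axes that start at 0; circles, squares and triangles are mice 1, 2 and 3 of a genotype, horizontal lines are group means and vertical lines 1 SD to each side (n = 3). Pcp4, Cntn2, Tbx3 and Nkx2-5 had 3 Mrps12ha/ha hearts above all 3 Mrps12+/+ hearts, and Tbx5 ran from 788.8 to 5567.0 over the Mrps12+/+ and Mrps12ep/ep hearts.

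Cntn2 encodes contactin-2, an adhesion molecule anchored to the cell surface that marks the Purkinje network of the mouse heart and is also made by neurons (chr1:132509427-132543256, minus strand). It had 143.8, 30.3 and 142.8 normalized counts in Mrps12+/+ hearts, 19.8, 712.1 and 326.9 in Mrps12ep/ep hearts and 570.6, 809.4 and 896.9 in Mrps12ha/ha hearts. The Mrps12ha/ha hearts were all above the Mrps12+/+ hearts, while Mrps12ep/ep mouse 2 reached into their range and Mrps12ep/ep mouse 1 was the lowest of all 9. The means were 105.6 ± 65.2, 352.9 ± 347 and 759.0 ± 169 (SD, n = 3 each). The Mrps12ha/ha mean was 7.18 times the Mrps12+/+ mean, with a log2 fold change of 3.11 (SE 1.13, adjusted p = 0.22 by limma, exact permutation p = 0.1). Over the other analyses tried the adjusted p ranged from 0.0266 to 0.54. Against Mrps12ep/ep the log2 difference was 2.14 (SE 1.13, adjusted p = 0.328 by limma, exact permutation p = 0.2), and Mrps12ep/ep and Mrps12+/+ hearts, with an adjusted p of 1.0, overlapped.

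Pcp4 and Cntn2 were low in the same hearts. Among the 6 Mrps12+/+ and Mrps12ep/ep hearts both genes were lowest in Mrps12+/+ mouse 2 and Mrps12ep/ep mouse 1, where Pcp4 had 3 reads and 1 read. In Mrps12ep/ep mouse 2 Cntn2 was highest at 712.1, against 143.8 in Mrps12+/+ mouse 1. Pcp4 did not stand out there. Its 14.5 (Poisson 95% interval 9.382 to 21.4) overlapped the 13.8 of Mrps12+/+ mouse 1 (7.875 to 22.37) in counting error. As a measure of likeness, the root mean square difference between log2 profiles over the 9 hearts was taken, each centred on its own mean. Taken from Pcp4, it uses the values that chose the group, so genes near Pcp4 are bound to be high in the Mrps12ha/ha hearts. Over all tested genes Cntn2 ranked sixth from Pcp4, at 0.868, and from Cntn2 the nearest genes were Drd2, a dopamine receptor, at 0.814 and Pcp4 itself. The other 6 conduction genes ranked from 745 (Tbx3, 1.501) to 15535 (Tbx5, 2.414).

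The 5 genes nearest to Pcp4 were Irx2, an Iroquois transcription factor, at 0.738, Gdnf, a neurotrophic factor, at 0.807, B230377A18Rik, a gene model still to be tested by experiment, at 0.839, Gm15222, an antisense RNA, at 0.84, and Pvalb, the calcium buffer parvalbumin, at 0.863. Irx2 had 201.5, 32 and 184.3 normalized counts in Mrps12+/+ hearts, 35.7, 93.9 and 210.7 in Mrps12ep/ep hearts and 373.7, 437.9 and 590.6 in Mrps12ha/ha hearts. Like Pcp4, it was lowest in Mrps12+/+ mouse 2 and Mrps12ep/ep mouse 1. Pvalb ranged from 2.7 to 16.2 in the 6 other hearts and was 53.4, 18.1 and 42.9 in the Mrps12ha/ha hearts. Gdnf was 44.2, 30.2 and 17.3 in the Mrps12ha/ha hearts and at most 16.4 in the others. Of the 5, Irx2 was the best measured, and for the rest, as for Pcp4, the likeness rests on low counts. Gdnf, Gm15222 and Pvalb, like Pcp4, reached a mean of at least 10 only through the Mrps12ha/ha hearts. Higher values of the 5 genes in these hearts follow from the ranking and are no separate result.

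**Figure D3:**
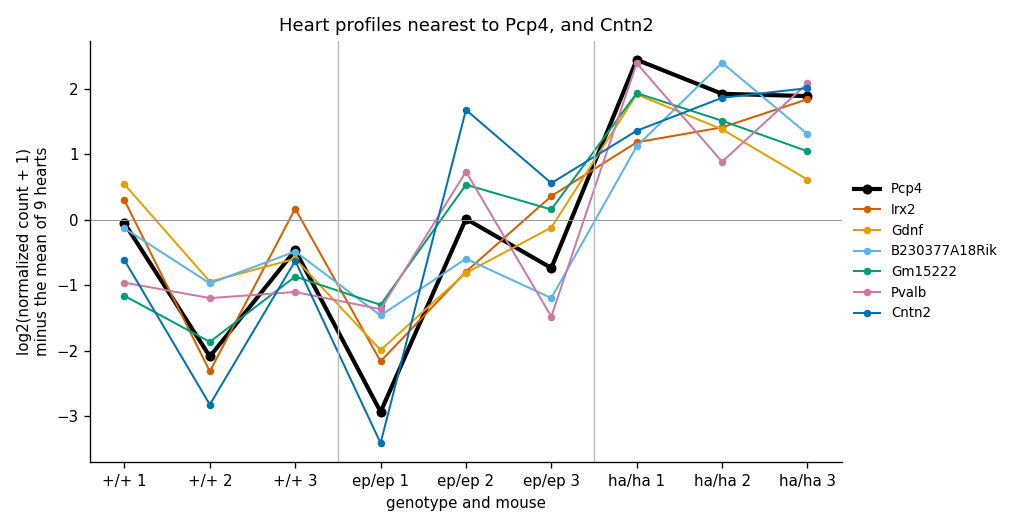
Profiles over the 9 hearts of Pcp4 (thick black line), the 5 genes with the smallest root mean square difference from it and Cntn2, as log2(normalized count + 1) minus the mean of the 9 hearts; grey vertical lines separate the genotypes. Pcp4, Irx2 and Cntn2 dip together in Mrps12+/+ mouse 2 and Mrps12ep/ep mouse 1, and all 7 lines are above their means in the 3 Mrps12ha/ha hearts. The 5 genes were picked for their nearness to Pcp4 over all 9 hearts, so their rise in these hearts and the dips that Irx2 shares with Pcp4 follow from the ranking. The dips of Pcp4 rest on 3 reads and 1 read.

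Because Pcp4 and Cntn2 are also made by neurons, the 12 neuron markers were summed in each heart. The sums were 690.7 to 734.7 in Mrps12+/+, 801.0 to 1012.0 in Mrps12ep/ep and 884.8 to 1292.1 in Mrps12ha/ha hearts, and 6 of the 12 had a mean of at least 10. Of these 6, Dbh, Phox2a and Uchl1 were higher in all Mrps12ha/ha than in all Mrps12+/+ hearts, against 11.1% of all genes. The rest of the 6 overlapped, with log2 fold changes of 0.86 for Stmn2, -0.48 for Tubb3 and -0.53 for Prph. None of the 6 passed the adjusted threshold, and Th, the first enzyme of catecholamine synthesis, was at 0 to 1.8 in all 9 hearts. The 10 Schwann cell markers summed to 2805.7 to 3894.2 in Mrps12+/+, 3101.6 to 5105.5 in Mrps12ep/ep and 3020.1 to 3526.2 in Mrps12ha/ha hearts. Ventricular markers summed to 2905731.2 to 3231458.3 in Mrps12+/+, 2478517.8 to 3288516.6 in Mrps12ep/ep and 3382821.8 to 3842926.3 in Mrps12ha/ha hearts. Myh6 was the largest part of these sums, with 1031674.6 to 1248720.8 in Mrps12+/+ and 2130353.7, 1185570.9 and 1846144.6 in Mrps12ha/ha hearts. Of the 12 ventricular markers, Myl2 and Tnni3 were higher in Mrps12ha/ha than in Mrps12+/+ hearts without overlap, against 11.1% of all genes. Ryr2 was lower, 1 of 12 against 10.0%, and the median log2 fold change of the 12 was 0.11. What these cell types contribute to the levels of Pcp4 and Cntn2 was not tested.

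Irx3, an Iroquois factor of the His-Purkinje system that favours fast conduction by acting on connexin genes, lies at chr8:91798525-91802067 on the minus strand. It had 1031.6, 660.1 and 903.7 normalized counts in Mrps12+/+ hearts, 1061.9, 571.2 and 889.1 in Mrps12ep/ep hearts and 1086.0, 1748.6 and 1002.1 in Mrps12ha/ha hearts. Mrps12ha/ha mouse 2 stood clear of the rest, and the other two of its group lay close to the highest Mrps12+/+ heart, so that the groups overlapped. The log2 fold change from Mrps12+/+ was 0.54 (SE 0.28, adjusted p = 0.297 by limma, exact permutation p = 0.2), and without Mrps12ha/ha mouse 2 it was 0.29 (adjusted p = 0.452). Its nearest profiles were those of Mfsd4b1, a transporter gene (0.147), and Gm9905 (0.17). Irx3os, the antisense RNA that overlaps Irx3, had 21.5, 28.6 and 19.5 in Mrps12+/+, 29.7, 15.1 and 13.6 in Mrps12ep/ep and 46.0, 54.4 and 55.3 in Mrps12ha/ha hearts, with a log2 fold change of 1.14 from Mrps12+/+ (adjusted p = 0.211 by limma). Per the study's methods the quantification used strand, so the antisense RNA was counted apart from Irx3.

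Etv1, an ETS factor of fast-conducting atrial and Purkinje muscle, lies at chr12:38779380-38870484 on the plus strand. It had 461.6, 581.4 and 629.5 normalized counts in Mrps12+/+ hearts, 357.6, 1248.5 and 662.0 in Mrps12ep/ep hearts and 565.1, 742.9 and 448.1 in Mrps12ha/ha hearts. The groups overlapped in all comparisons. For Mrps12ha/ha against Mrps12+/+ the log2 fold change was 0.05 (SE 0.39, adjusted p = 0.946 by limma, exact permutation p = 1.0), and its sign turned under several of the other analyses. Its nearest profiles were those of 4933431E20Rik, an antisense RNA (0.178), and Hpgd, an enzyme of prostaglandin breakdown (0.181).

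Tbx3, the T-box repressor that keeps nodal cells from taking up the programme of working muscle, lies at chr5:119670669-119684724 on the plus strand. It had 705.3, 635.9 and 537.1 normalized counts in Mrps12+/+ hearts, 893.5, 751.6 and 926.3 in Mrps12ep/ep hearts and 1268.3, 869.8 and 1954.3 in Mrps12ha/ha hearts. Both mutant groups lay above the Mrps12+/+ hearts without overlap, and Mrps12ha/ha mouse 2 fell within the Mrps12ep/ep range. The means were 626.1 ± 84.5, 857.1 ± 92.9 and 1364.1 ± 549 (SD, n = 3 each). The log2 fold change from Mrps12+/+ was 1.05 in Mrps12ha/ha (SE 0.26, adjusted p = 0.191 by limma, exact permutation p = 0.1) and 0.46 in Mrps12ep/ep hearts (SE 0.26, adjusted p = 1.0 by limma, exact permutation p = 0.1). With array weights, which give less weight to hearts far from their group, Cntn2, Tbx3 and Tbx5 passed, in a fit that called 5573 genes. Mrps12ha/ha mouse 2 also decided the call: without it the Tbx3 log2 fold change was 1.34 with an adjusted p of 0.00431 by limma, in a fit that called 4320 genes in place of 5.

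The 2 genes nearest to Tbx3 over the 9 hearts were Trib3, a pseudokinase of the stress response (0.149), and Hey1, a Notch target that is made in endothelium and nodal tissue (0.15). Hey1 had 544.2, 459.4 and 490.5 normalized counts in Mrps12+/+, 864.8, 559.0 and 684.7 in Mrps12ep/ep and 1141.3, 664.4 and 1464.7 in Mrps12ha/ha hearts, the same order of mice within the Mrps12ha/ha group as Tbx3. The 10 endothelium markers summed to 58528.3, 50837.7 and 50152.9 in Mrps12+/+, 65235.7, 63211.5 and 57173.9 in Mrps12ep/ep and 88880.4, 56657.1 and 83318.8 in Mrps12ha/ha hearts, so Mrps12ha/ha mouse 2 was again the lowest of its group. The 10 arterial endothelium markers, which include Gja5 and Hey1, summed to 6610.0 to 8031.7 in Mrps12+/+, 7188.8 to 9409.4 in Mrps12ep/ep and 6595.9 to 11246.1 in Mrps12ha/ha hearts. No marker of either list passed the adjusted threshold, and the part of endothelium in the Tbx3 level was not tested. Tbx3os1, which overlaps Tbx3 on the other strand, had 46.5 to 79.9 in Mrps12+/+, 58.0 to 121.8 in Mrps12ep/ep and 209.8, 48.3 and 173.6 in Mrps12ha/ha hearts.

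Nkx2-5, the NK2 homeobox factor needed in all cardiac muscle and for the survival of the conduction system, lies at chr17:26838664-26845009 on the minus strand. It had 1589.6, 1563.4 and 1399.3 normalized counts in Mrps12+/+ hearts, 1586.0, 1630.1 and 1301.4 in Mrps12ep/ep hearts and 1833.4, 1803.0 and 1818.1 in Mrps12ha/ha hearts. It varied least of the 8 genes, and the Mrps12ha/ha hearts lay above all 6 others. The difference was small: the means of 1517.4 ± 103, 1505.8 ± 178 and 1818.2 ± 15.2 (SD, n = 3 each) gave a log2 fold change of 0.26 from Mrps12+/+ (SE 0.11, adjusted p = 0.248 by limma, exact permutation p = 0.1) and of 0.28 from Mrps12ep/ep hearts (SE 0.11, adjusted p = 0.265 by limma, exact permutation p = 0.1). Its nearest profiles, at 0.07 and 0.071, were those of Gpi1, an enzyme of glycolysis, and Pik3r2, a regulatory subunit of phosphoinositide kinase.

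Tbx5, the T-box activator of the atria and the conduction system (chr5:119832668-119885219, plus strand), and Gja5, the connexin of atrial muscle, His-Purkinje fibres and arterial endothelium (chr3:96904693-97077416, plus strand), were not higher in the Mrps12ha/ha hearts. Tbx5 had 788.8, 3786.1 and 3036.9 normalized counts in Mrps12+/+ hearts, 793.5, 5567.0 and 2205.0 in Mrps12ep/ep hearts and 646.1, 1096.3 and 666.7 in Mrps12ha/ha hearts. Gja5 had 252.3, 1354.9 and 727.0 in Mrps12+/+, 269.4, 2171.1 and 716.5 in Mrps12ep/ep and 406.8, 335.2 and 403.9 in Mrps12ha/ha hearts. For both genes mice 2 and 3 of the Mrps12+/+ and of the Mrps12ep/ep group were the highest 4 hearts, and mice 1 of these groups lay among or below the Mrps12ha/ha hearts. The log2 fold change of Mrps12ha/ha from Mrps12+/+ hearts was -1.42 for Tbx5 (SE 0.73, adjusted p = 0.291 by limma, exact permutation p = 0.2) and -0.72 for Gja5 (SE 0.74, adjusted p = 0.575 by limma, exact permutation p = 0.4).

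The hearts highest for these genes were those highest in atrial transcripts. The 9 atrial markers held by no other list, among them Nppa, Myl7, Myl4 and Sln, summed to 9452.5, 179945.0 and 132174.6 in Mrps12+/+, 2997.7, 414685.8 and 102125.1 in Mrps12ep/ep and 6877.0, 6185.2 and 12843.0 in Mrps12ha/ha hearts. The 4 hearts with the highest sums were the same 4 that were highest for Tbx5 and Gja5, in the same order for both genes, whereas the 5 other hearts were in a different order. With the mean log2 level of these 9 markers as a covariate, an analysis added after the data were seen, the log2 fold change of Mrps12ha/ha from Mrps12+/+ was -0.58 for Tbx5 (SE 0.34, adjusted p = 0.336 by limma) and 0.15 for Gja5 (SE 0.30, adjusted p = 0.78). In the same fit it was 3.93 for Cntn2, 1.01 for Tbx3, 0.24 for Nkx2-5 and 0.29 for Irx3. Without the covariate these were 3.11, 1.05, 0.26 and 0.54. No conduction gene passed the adjusted threshold in either fit. Of the 12 atrial markers 0 passed the adjusted threshold and Nppa alone was lower in all Mrps12ha/ha than in all Mrps12+/+ hearts. How much atrial tissue each library held is not given in the labels, and with all Mrps12ha/ha hearts low its part cannot be told apart from the genotype. The nearest profiles were those of Cacna1h, a T-type calcium channel (0.236), and Gng2, a G protein subunit (0.241), for Tbx5, and of Tbc1d1 (0.249) and Smim1 (0.25) for Gja5.

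**Figure D4:**
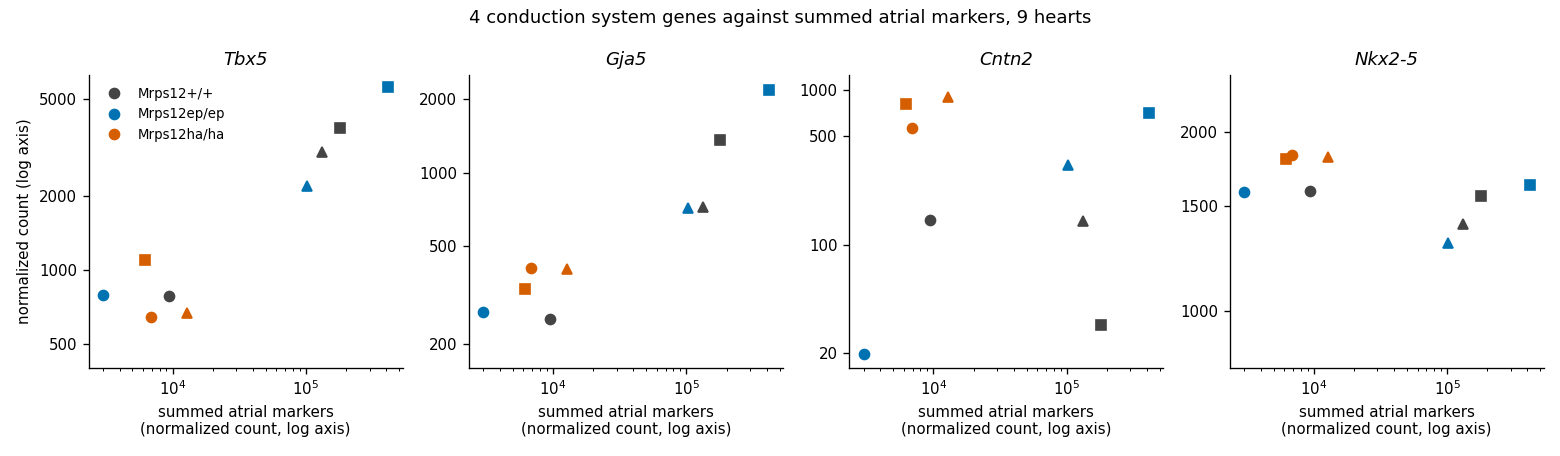
Normalized counts of Tbx5, Gja5, Cntn2 and Nkx2-5 (vertical, log axes) in the 9 hearts against the summed normalized counts of 9 atrial markers (horizontal, log axis); colours are genotypes and circles, squares and triangles mice 1, 2 and 3. Tbx5 and Gja5 are highest in the 4 hearts with sums of 102125.1 or more, whereas Cntn2 is at 19.8 in the heart with the lowest sum and at 30.3 in the heart with 179945.0.

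Levels between genes were compared as reads per 1e6 reads per kilobase of the longest principal transcript, over the 9 hearts irrespective of genotype. Nkx2-5 had the highest level, with a median of 31.94 (range 26.43 to 36.46). Irx3 at 11.61 (7.466 to 19.8), Tbx5 at 8.22 (4.97 to 48.18), Tbx3 at 5.16 (3.33 to 11.86), Gja5 at 3.968 (2.458 to 23.82) and Etv1 at 2.754 (1.623 to 6.477) followed, each overlapping its neighbour in this order. Cntn2 at 1.411 (0.08238 to 3.78) and Pcp4 at 0.651 (0.04612 to 3.918) had the lowest medians and the widest relative ranges. This order mixes the genotypes: within the Mrps12ha/ha hearts the mean level was 2.669 for Etv1, 3.069 for Pcp4 and 3.175 for Cntn2, with overlapping ranges. In the Mrps12ha/ha hearts Pcp4 had 3.918, 2.646 and 2.643.

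Most genes next to the 8 had a mean under 10 in the heart. Of Pcp4, the nearest genes on either side, AC154258.1 at 20503 bases and Dscam at 65047 bases, and Igsf5, which overlaps Pcp4 on the same strand and may share reads with it, had at most 1.9 normalized counts in any heart. Of Cntn2, Tmem81 at 788 bases had 60.4 to 78.4 in Mrps12+/+, 59.4 to 87.0 in Mrps12ep/ep and 119.6, 60.4 and 159.7 in Mrps12ha/ha hearts (log2 fold change 0.59, adjusted p = 0.339 by limma), and Nfasc, another adhesion molecule at 21434 bases, had a log2 fold change of -0.04 (adjusted p = 0.987). Gpr89, which overlaps Gja5 on the other strand, had 650.2 to 794.3 in Mrps12+/+, 611.2 to 730.1 in Mrps12ep/ep and 421.5 to 552.7 in Mrps12ha/ha hearts (log2 fold change -0.54, adjusted p = 0.191). Bnip1, before Nkx2-5 at 46099 bases, had 588.6 to 670.8 in Mrps12+/+, 503.4 to 662.7 in Mrps12ep/ep and 754.7 to 890.0 in Mrps12ha/ha hearts (log2 fold change 0.35, adjusted p = 0.229). Gm43050, 748 bases before Tbx5, had 49.1 to 113.1 over the 9 hearts, and the nearest genes of Etv1 (Gm4257 and Gm18442) were at 0 in every heart. The remaining adjacent genes, Gm16064 and Tbx3os2 of Tbx3, Pdzk1 and Gm43222 of Gja5, Gm36380 and Gm28511 of Irx3, Gm17382 of Nkx2-5 and Gm43269 of Tbx5, had at most 16.4.

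Other genes of the conduction system were followed in lists that were chosen with earlier results of these data known. Of 18 genes of fast conduction and the His-Purkinje system, all tested, 0 passed the adjusted threshold in any heart comparison. Irx2 (log2 fold change 2.10, adjusted p = 0.216) and Scn10a, a sodium channel gene tied to conduction (1.31, adjusted p = 0.233), were higher in all Mrps12ha/ha than in all Mrps12+/+ hearts. These were 2 of 18, near the 11.1% of all genes. Scn10a had 105.1, 157.5 and 112.6 in Mrps12+/+, 42.6, 229.6 and 170.7 in Mrps12ep/ep and 296.4, 416.8 and 233.7 in Mrps12ha/ha hearts, so it lay above both other groups. None of the 18 was lower without overlap, against 10.0% of all genes. The median log2 fold change of the list was 0.04, against -0.02 for all genes. Gja1, the connexin of working muscle, was the only one of the 18 without overlap between Mrps12ep/ep and Mrps12+/+ hearts, with a log2 fold change of 0.07. That is 1 of 18 higher, against 4.4% of all genes, and 0 of 18 lower, against 3.64%.

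Of 21 nodal and pacemaker genes 19 were tested in the heart and 0 passed. Their median log2 fold change was -0.19 for Mrps12ha/ha and 0.18 for Mrps12ep/ep against Mrps12+/+. The only gene without overlap in the first comparison was Cacna2d2, a calcium channel subunit, with 228.2, 319.3 and 305.0 in Mrps12+/+ and 106.8, 193.3 and 130 in Mrps12ha/ha hearts (adjusted p = 0.601). It had 72.3, 3523.5 and 236.1 in Mrps12ep/ep hearts, the high value being that of the heart with the most atrial transcripts. In the first comparison 1 of 19 was thus lower without overlap, against 10.0% of all genes, and 0 of 19 higher, against 11.1%. Rgs6, which damps vagal signals in pacemaker cells, was higher in all Mrps12ep/ep than in all Mrps12+/+ hearts (log2 fold change 0.56, adjusted p = 1.0), 1 of 19 against 4.4% of all genes. Tbx3 thus stood among nodal genes of which most did not separate the groups.

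Of 17 other cardiac transcription factors 16 were tested and 0 passed, and the median log2 fold change for Mrps12ha/ha against Mrps12+/+ was -0.41. Hey1 was the only one higher without overlap, 1 of 16 against 11.1% of all genes. Myocd, the co-activator of muscle genes, with 1328.7, 1261.5 and 1338.9 in Mrps12+/+ and 390.2, 1150.7 and 457.1 in Mrps12ha/ha hearts (log2 fold change -1.15, adjusted p = 0.206), Hand2 (-0.82, adjusted p = 0.198) and Mef2c (-0.50, adjusted p = 0.211) were among the 4 of 16 that were lower without overlap, against 10.0% of all genes. Nkx2-5, at 0.26, was on the other side of 0 from these factors. Between Mrps12ep/ep and Mrps12+/+ hearts Hey1 (0.48) was also higher and Hand2 (-0.50) also lower without overlap. These were 1 of 16 each, against 4.4% and 3.64% of all genes.

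Since Pcp4 acts on calmodulin, 21 genes of calmodulin and its targets were listed, of which 20 were tested and 0 passed. Calm2 and Calm3, which encode calmodulin, had log2 fold changes of -0.18 and 0.10 for Mrps12ha/ha against Mrps12+/+, and Pcp4l1, the close relative of Pcp4, had -0.36 (adjusted p = 0.307). Pcp4l1 was far more abundant than Pcp4 in every heart, at 5984.3 to 10574.5 normalized counts. Nrgn, neurogranin, which like Pcp4 binds calmodulin through an IQ motif, had 71.5, 140.2 and 71.7 in Mrps12+/+, 227.8, 349.1 and 38.1 in Mrps12ep/ep and 664.5, 154.0 and 842.3 in Mrps12ha/ha hearts (log2 fold change 2.29, adjusted p = 0.22). It was the only one of the 20 higher without overlap, against 11.1% of all genes. Ryr2, Ppp3cb, Ppp3ca and Calm2, 4 of 20 against 10.0% of all genes, were lower without overlap, with log2 fold changes of -1.07, -0.43, -0.25 and -0.18, and the list's median was -0.25.

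In the livers 5 of the 8 genes, Cntn2, Etv1, Tbx3, Gja5 and Irx3, had a mean of at least 10 and were tested among 15314 genes. None passed the adjusted threshold in any of the 3 liver comparisons, in each of which 0.00653% of all genes passed. At an unadjusted p under 0.05 there were likewise 0 of 5, against 14.1% of all genes for Mrps12ha/ha and 9.74% for Mrps12ep/ep against Mrps12+/+ and 8.62% between the mutants. Only Etv1 in Mrps12ha/ha against Mrps12+/+ livers separated without overlap, 1 of 5 against 19.9% of all genes in either direction, and in the other comparisons 0 of 5 did, against 12.8% and 17.8%. Etv1 had 46.9, 58.2 and 45.7 normalized counts in Mrps12+/+ and 45.2, 41.6 and 31.2 in Mrps12ha/ha livers, a log2 fold change of -0.35 (SE 0.30, adjusted p = 0.634 by limma, exact permutation p = 0.1).

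Tbx3, which is also made by liver cells, had the highest level of the 8 genes in the liver. It had 633.2, 889.5 and 946.5 normalized counts in Mrps12+/+ livers, 308.1, 860.1 and 1202.9 in Mrps12ep/ep livers and 1313.8, 660.7 and 1908.9 in Mrps12ha/ha livers. Mice 1 and 3 of the Mrps12ha/ha group were above the Mrps12+/+ range, but mouse 2 was within it and the groups overlapped (log2 fold change 0.55, SE 0.51, adjusted p = 0.663 by limma, exact permutation p = 0.3). Per 1e6 reads and kilobase its median was 3.55 in the livers, while Irx3, Gja5, Etv1 and Cntn2 had medians of 0.2575, 0.221, 0.1341 and 0.05547. Cntn2 had 9.4 to 39.9 normalized counts in the 9 livers, with a log2 fold change of 0.41 for Mrps12ha/ha against Mrps12+/+ (SE 0.57, adjusted p = 0.777 by limma). Nkx2-5 had 9 reads in Mrps12ha/ha mouse 3 and Tbx5 had 1 read in Mrps12ep/ep mouse 2, and both had none in the other 8 livers. That liver of Mrps12ha/ha mouse 3 also had the highest heart muscle transcripts of the 9, with 4288.9 normalized counts of Myh6, 889.0 of Myl2 and 937.8 of Tnnt2, against at most 264.1, 316.2 and 95.2 in the others, and their part in the Nkx2-5 reads was not tested. Whether the effect of Mrps12ha/ha differed between heart and liver was not tested.

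**Figure D5:**
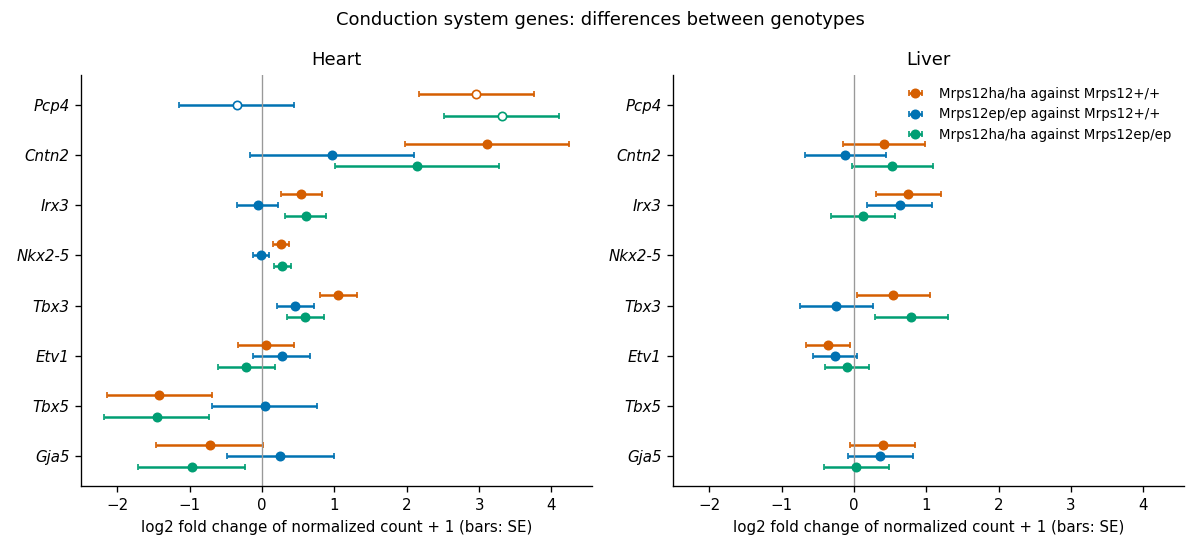
Log2 fold changes (normalized count + 1) of the 8 genes in hearts (left) and livers (right) for the 3 genotype comparisons, with bars of 1 SE from limma (3 mice per genotype); open circles mark Pcp4, whose heart values chose the genes and have no test, and genes without a circle in the liver were too low to be fitted. In the heart Cntn2 is at 3.11 and Tbx3 at 1.05 for Mrps12ha/ha against Mrps12+/+, and none of the 7 genes tested passed an adjusted p of 0.05.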

How the data were processed

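The authors trimmed the reads and quantified transcripts with Salmon 1.1.0 on GENCODE vM21 (GRCm38.p6) with a stranded setting and bias adjustment, summed them per gene, and the deposited values are DESeq2 size-factor-normalized counts, without mitochondrial transcripts, in 1 column per mouse and tissue (18 columns from 54 technical libraries, joined to the mice by the column names and sample labels). The files also hold the authors' own fold changes and p-values, which were not used. The 8 genes, the gene lists and the tests were chosen with earlier results of these data known. In each column 100% of the low values (up to 20 reads) were whole multiples of 1 step within 0.1 read, which gave the reads and depth; these reads are rounded estimates. Levels per kilobase used the longest principal transcript.

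Log2(normalized count + 1) was fitted with limma 3.58.1 (R 4.3.3; lmFit, eBayes with trend), all 3 genotypes of a tissue in 1 fit, genes with a mean of at least 10, Benjamini-Hochberg adjustment over all tested genes and a threshold of 0.05. Adding 1 understates the fold changes of low genes. Exact permutation tests used all 20 splits of 6 mice. Python 3.11.15 with scipy 1.17.1 gave the rest.

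Named are the 8 genes, the 5 profiles nearest to Pcp4 and the 2 nearest to each other gene, the adjacent and overlapping genes, of each list up to 4 genes with the largest log2 fold change among those whose groups did not overlap, and markers whose sums moved with a gene. Calm2, Calm3, Pcp4l1 and the neuron, atrial and heart muscle markers given by name, and Gja1, were named after their values were seen. Alternatives were pseudocounts of 0.1 and 8, no filter, array weights, only the 2 genotypes compared, the replicate number as a block and leaving out each mouse. A limma-voom fit of the reads and a fit with an atrial covariate were added once values had been seen.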

Additional observations from a re-analysis of the deposited data

How the results depend on the processing

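None of the 7 tested genes in the hearts or 5 in the livers passed the threshold in the reported analysis. Of the log2 fold changes of the 7 genes recomputed in the hearts, 173 of 189 kept direction and side of the threshold when 1 mouse was left out and 154 of 168 did under the other settings, against 125 of 135 and 104 of 105 in the livers. The heart of Mrps12ha/ha mouse 2 mattered most: in Mrps12ha/ha against Mrps12+/+ hearts 5 genes were called, with 3 to 4320 when 1 mouse was left out, and in Mrps12ha/ha against Mrps12ep/ep 4, with 3 to 3728, both high values being without that mouse. Of the conduction genes 0 to 1 were called in either comparison when 1 mouse was left out, the 1 being Tbx3, and 3 in each with array weights, which called 5573 and 6314 genes. The cause was not tested. The first comparison gave 9 genes with the atrial covariate, 3 with limma-voom and 3 with the replicate number as a block, and the second 9 with the covariate. Between Mrps12ep/ep and Mrps12+/+ hearts limma called 0 genes (271 at an unadjusted p under 0.05), and 3 with array weights, 2 with limma-voom, 2 without the filter, 1 with a pseudocount of 0.1, 1 with a pseudocount of 8 and 0 to 1 with 1 mouse left out.

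In each liver comparison 1 gene was called. Mrps12ha/ha against Mrps12+/+ gave 4 with array weights, 0 with limma-voom, 3 without the filter, 0 with a pseudocount of 0.1 and 0 to 92 with 1 mouse left out, the 92 without Mrps12+/+ mouse 2 or 3. Mrps12ep/ep against Mrps12+/+ gave 0 with limma-voom, 2 without the filter, 0 with only the 2 genotypes, 0 with a pseudocount of 0.1 and 1 to 72 with 1 mouse left out. Mrps12ha/ha against Mrps12ep/ep gave 13 with array weights, 25 with only the 2 genotypes and 0 to 11 with 1 mouse left out.

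The reversed log2 fold changes of the tested genes were all of values that had not passed. Those of Pcp4, at -0.35 in the reported fit of Mrps12ep/ep against Mrps12+/+ hearts, are a description without a test. For Mrps12ha/ha against Mrps12+/+ hearts, Etv1 was -0.22 with array weights, -0.085 with limma-voom and -0.135 to 0.229 with 1 mouse left out, and Gja5 was 0.15 with the atrial covariate. For Mrps12ep/ep against Mrps12+/+ hearts, array weights gave 0.18 for Pcp4, -0.18 for Gja5, 0.12 for Irx3 and -0.31 for Tbx5, and limma-voom 0.021 for Nkx2-5. With 1 mouse left out the same comparison ran from -0.97 to 0.51 for Pcp4, -0.07 to 2.48 for Cntn2, -0.18 to 0.72 for Etv1, -0.52 to 0.99 for Gja5, -0.255 to 0.19 for Irx3, -0.67 to 0.75 for Tbx5 and -0.077 to 0.086 for Nkx2-5. For Mrps12ha/ha against Mrps12ep/ep hearts, Etv1 was 0.16 with the atrial covariate and -0.665 to 0.235 with 1 mouse left out. In the livers Cntn2 was 0.29 with array weights in Mrps12ep/ep against Mrps12+/+, and the ranges with 1 mouse left out were -0.66 to 0.325 for Cntn2, -0.65 to 0.327 for Tbx3 and -0.045 to 0.68 for Gja5 there, -0.013 to 0.712 for Gja5 in Mrps12ha/ha against Mrps12+/+, and -0.319 to 0.056 for Etv1, -0.245 to 0.29 for Gja5 and -0.27 to 0.42 for Irx3 between the mutants.

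Mice of the same number in different groups did not all deviate together (correlations from -0.231 to 0.578), so the numbers were not taken to pair them. With the replicate block the livers gave 7, 9 and 6 genes in place of 1 in the 3 comparisons, and 0 conduction genes were called in heart or liver. The planned count models were not run, and limma-voom on the recovered reads was run in their place. With 3 mice a group and 1 to 81 reads of Pcp4 a heart, small differences were not detectable.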

Other observations

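Kcne1, a potassium channel subunit of the fast conduction list that was named after its values were seen, had 175.7, 52.8 and 133.3 normalized counts in Mrps12+/+ hearts, 47.5, 160.6 and 112.6 in Mrps12ep/ep hearts and 136.2, 226.5 and 249 in Mrps12ha/ha hearts. Its lowest hearts were Mrps12+/+ mouse 2 and Mrps12ep/ep mouse 1, as for Pcp4, Cntn2 and Irx2, and these hearts differed in the summed atrial markers (179945.0 and 2997.7). Irx2 had been picked for its nearness to Pcp4. Irx1 was also lowest in these hearts (54.5 and 66.4), but not all conduction genes were. Scn10a was low in Mrps12ep/ep mouse 1 (42.6) but highest of its group in Mrps12+/+ mouse 2 (157.5). Irx3 was highest of its group in Mrps12ep/ep mouse 1 (1061.9). Mesothelium markers summed to 1074.7 to 2492.6 in Mrps12+/+, 777.5 to 4035.3 in Mrps12ep/ep and 448.8 to 660.8 in Mrps12ha/ha hearts, with 9 of 10 lower in all Mrps12ha/ha than in all Mrps12+/+ hearts (10.0% of all genes were) and 0 past the adjusted threshold of limma (0.0311% of all genes; 7 of the 10 were lower at an unadjusted p under 0.05). The 9 smooth muscle markers summed to 81037.3 to 106609.3 over the hearts, of which Des alone made up 53104.3 to 76567.3. The sum therefore hides wide ranges of other markers, with Myh11 at 1221.1 to 7982.5 and Acta2 at 2568.7 to 15394.6, while Smtn had 8322.8 to 12962.5. The median log2 fold change of the 9 for Mrps12ha/ha against Mrps12+/+ was -0.79. Without overlap 1 of 9 was lower, against 10.0% of all genes, and 0 of 9 higher, against 11.1%. Skeletal muscle markers summed to 25079.0 and 31896.9 in the livers of Mrps12+/+ mice 1 and 2 and to at most 219.3 in the other 7 livers.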
